A study of Mus musculus with 16 samples.

Results

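The genes described here encode 9 liver enzymes that dispose of amino acid nitrogen, of 37074 gene names on the array. They were chosen by name: a probe belonged to the set when the array design gave it one of these gene names. The rule itself uses no measured value, but the genes were named with earlier results of these data known. Of these, 4 belong to the urea cycle (Cps1, Otc, Ass1 and Asl) and 5 break down amino acids (Sds, Hal, Gls2, Tat and Tdo2). The 9 genes were carried by 14 probes, all of them well above background on all 16 arrays, so every gene was measured in every mouse.

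Livers came from 16 male C57BL/6 mice fed a normal chow (NC), 6 weeks old at the start of the diet and 10 weeks old by their labels, 1 array per mouse. They received reduced PBS (Conv + PBS, n = 6), caecal microbiota of lean mice (Conv + LM, n = 5) or caecal microbiota of mice fed a high-fat diet, named HFD-microbiota (Conv + OM(HFD), n = 5). All recipients were conventional mice given no antibiotic, so that each kept its own gut bacteria, and all were fasted before sacrifice, so there was no fed group. The labels describe the control mice as not transplanted, while the design names the vehicle, and they are called Conv + PBS here. The arrays lay on 2 slides of 8 mice each, and every group was split between both. The mice were housed in groups and the labels name no cage, so that where cage and treatment coincide they cannot be told apart.

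The urea cycle turns ammonia, which is toxic to the brain, into urea for excretion by the kidney. Cps1 and Otc work in the mitochondria and Ass1 and Asl in the cytosol, and the cycle runs mainly in hepatocytes around the portal vein. Enzymes such as Sds, Hal, Gls2, Tat and Tdo2 feed it by removing nitrogen or opening the carbon skeleton of single amino acids. Glucagon and glucocorticoids, the hormones of fasting, are known to raise many genes of both groups, and Tat and Tdo2 are classical glucocorticoid targets of the liver.

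Each value is the log2 brightness of a probe above the 75th percentile of its array, so a difference of 1 is a doubling. Levels are compared only for the same probe. Probe sequences are given for 3 genes, because the levels below are those of these 60 bases and not of the whole transcript. The positions are those of the array design on mm9, and the strand is that of the gene. The Cps1 probe lies at chr1:67276029-67276088 (plus strand), the Sds probe at chr5:120933105-120933164 (plus strand) and the Tdo2 probe at chr3:81765359-81765418 (minus strand). The letters are in lower case because no part of a probe is singled out.
Cps1: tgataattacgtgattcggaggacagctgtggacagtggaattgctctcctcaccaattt
Sds: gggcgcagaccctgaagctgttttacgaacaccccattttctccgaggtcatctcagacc
Tdo2: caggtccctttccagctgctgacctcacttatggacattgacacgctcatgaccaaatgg

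The livers held the RNA of hepatocytes, with 6 of 6 hepatocyte markers well above background on all arrays and a summed level of 12.01 to 12.33 that overlapped between groups. The summed level of 6 markers of hepatocytes around the central vein, the zone opposite to that of the urea cycle, was lowest in Conv + LM mouse 14 (9.33) and Conv + OM(HFD) mouse 25 (9.46), against 9.58 to 9.93 in the other mice. Of 5 neutrophil markers 4 were tested, and their summed level stood at 4.39 in Conv + PBS mouse 1 and 4.30 in Conv + OM(HFD) mouse 25, against −1.15 to 0.10 in the other 14 mice. The summed level of 6 Kupffer cell markers was also highest in these mice, at 7.05 and 5.90, against 4.18 to 5.10. These are named below as the mice with high neutrophil markers, and results that rest on them are given without them, while the part of these cells in any result was not tested. Adipose markers (2 of 4 tested) summed to 2.70 in Conv + LM mouse 15, against −0.89 to 0.42 in the others. In bulk liver, fewer cells of a type and less RNA per cell cannot be told apart.

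At the probe that stood for each gene, no enzyme of the set passed limma's test between groups, while Otc was under 0.05 by an exact test in 1 comparison. A second Otc probe did not overlap between both microbiota groups, but its adjusted limma p over all probes was 0.9996. Comparing Conv + OM(HFD) with Conv + PBS mice, 0 of 9 genes reached an unadjusted p under 0.05 in limma, a linear model fitted across all 20411 genes tested, where 668 genes (3.27%) did. After Benjamini-Hochberg adjustment over all genes, 0 genes (0%) passed in limma, and the lowest adjusted p was 0.999938. The mice of both groups did not overlap for 0 of 9 enzymes and for 49 genes overall (0.24%). In Conv + LM vs. Conv + PBS mice, 0 of 9 were under the unadjusted threshold against 806 genes (3.95%), 0 genes (0%) passed the adjustment (smallest adjusted p 0.99693), and groups did not overlap for 0 of 9 enzymes against 57 genes (0.279%). For Conv + OM(HFD) vs. Conv + LM these counts were 0 of 9 against 553 genes (2.71%), 0 genes (0%) after adjustment (smallest adjusted p 0.999517), and 0 of 9 against 95 genes (0.465%). By an exact two-sided permutation test over mice, without correction, 1 of 9 enzymes was under 0.05 in the first comparison against 3.06% of the 20335 genes with a value in every mouse, 0 of 9 in the second against 3.71%, and 0 of 9 in the third against 3.09%. Both comparisons with controls share the Conv + PBS mice.

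Against Conv + PBS, 7 of 9 genes averaged higher with the HFD-microbiota, and the median log2 fold change was 0.08 over the set and −0.00041 over all genes. In Conv + LM mice, 7 of 9 were also higher, with a median of 0.08 against −0.01 over all genes. Between both microbiota groups 5 were higher and 4 lower, with a median of 0.0041 against 0.0087. Of all 20411 genes, 10168, 9372 and 10742 averaged higher in these comparisons, in this order. The 95% intervals of all 27 differences lay between −0.43 and 0.87 on the log2 scale and included 0.

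**Figure D1:**
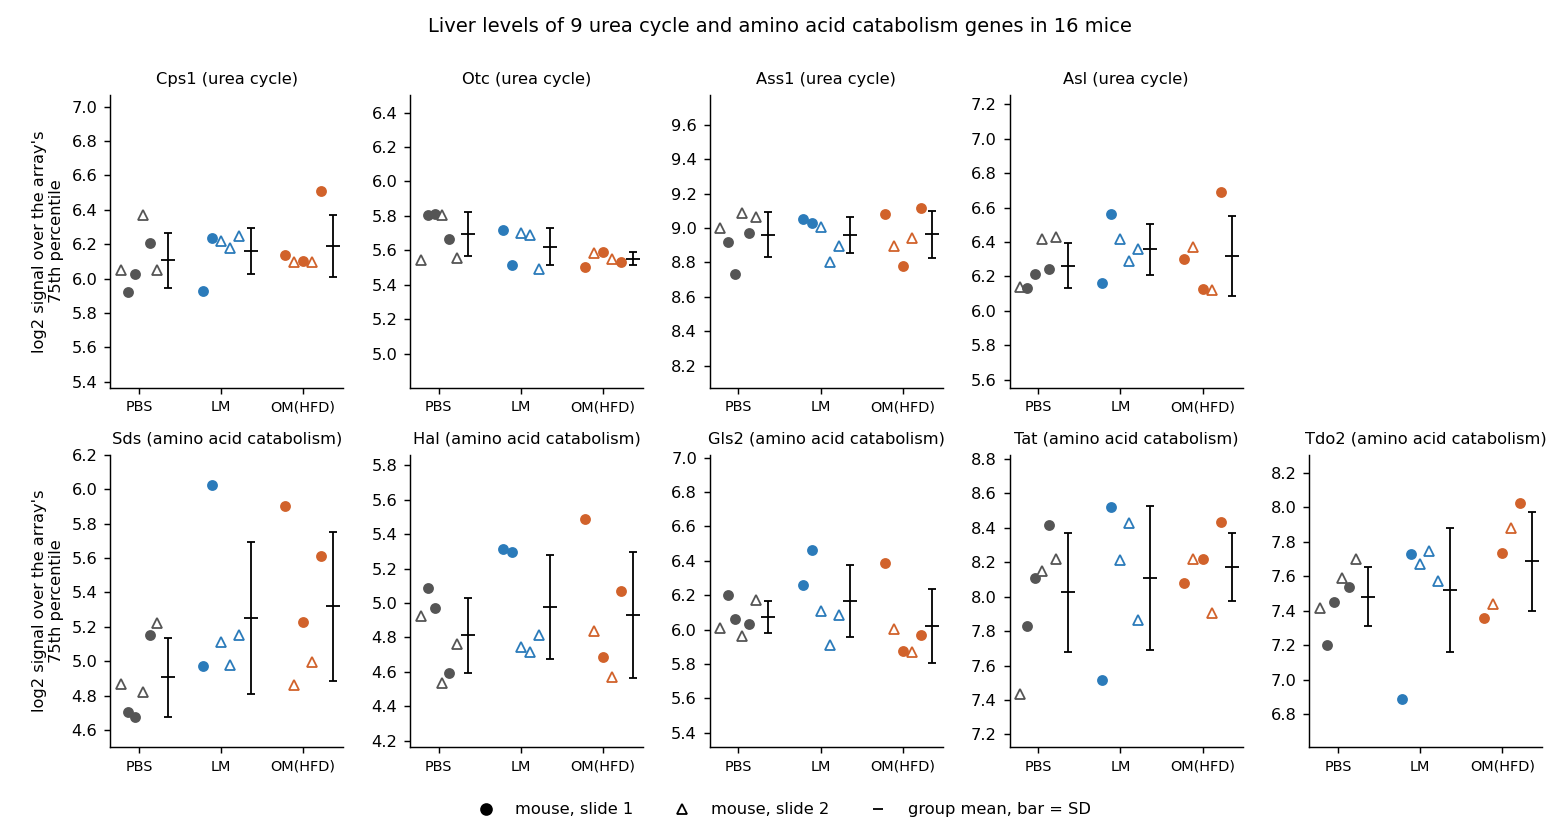
Level of each gene in each mouse (y axis, log2 signal over the 75th percentile of the array, with the same span of 1.7 in every panel) by group (x axis). Filled circles are mice on slide 1, open triangles mice on slide 2, and the black bar is the group mean with its SD. The groups overlap for all 9 genes, and the points of Sds, Hal, Tat and Tdo2 lie farther apart than those of the urea cycle genes.

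Among the urea cycle genes, Cps1, the mitochondrial enzyme that fixes ammonia and sets the pace of the cycle, averaged 6.11 ± 0.16 (SD, n = 6) in Conv + PBS mice, where it ran from 5.93 to 6.37 with a median of 6.05. Its values were 5.93, 6.24, 6.22, 6.18 and 6.25 in Conv + LM mice and 6.14, 6.10, 6.10, 6.10 and 6.51 in Conv + OM(HFD) mice. A single mouse stood apart in each microbiota group, low in Conv + LM mouse 13 and high in Conv + OM(HFD) mouse 30, and all groups overlapped. The log2 fold change was 0.08 (95% CI −0.13 to 0.30) for Conv + OM(HFD) vs. Conv + PBS and 0.06 (−0.16 to 0.27) for Conv + LM vs. Conv + PBS mice in limma. The first of these was 0.0025 without Conv + OM(HFD) mouse 30, and the second ran from 0.02 to 0.12 when each mouse was left out.

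Otc, the next mitochondrial step, which joins carbamoyl phosphate to ornithine, was the steadiest gene of the set. It ran from 5.54 to 5.81 in Conv + PBS mice, with a median of 5.73. Its values were 5.72, 5.51, 5.70, 5.69 and 5.49 in Conv + LM mice and 5.50, 5.58, 5.59, 5.55 and 5.53 in Conv + OM(HFD) mice. None of the 5 Conv + OM(HFD) mice exceeded the Conv + PBS median, and 2 lay below the lowest Conv + PBS mouse, although both groups overlapped. Its log2 fold change for Conv + OM(HFD) vs. Conv + PBS was −0.15 (95% CI −0.31 to 0.01), a level 9.6% lower, with an unadjusted limma p of 0.0715 (adjusted p 0.999938) and an exact two-sided permutation p of 0.0476. The smallest p this exact test allows is 0.00433, and of the 9 genes Otc was the only one under 0.05 by the exact test in this comparison (3.06% of all genes), with no correction for the 9 tests. On slide 1 the difference was −0.22 and on slide 2 it was −0.07.

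A second Otc probe, at chrX:9893244-9893303 on the plus strand of mm9 and assigned by the design to another Otc transcript, followed the first only weakly. Its deviations from the group means correlated with those of the first probe at r = 0.27 over 16 mice. Its level ran from −2.63 to −2.10 in Conv + OM(HFD) mice and from −2.04 to −1.74 in Conv + LM mice, with no overlap, and from −2.55 to −1.74 in Conv + PBS mice. Against the controls it was lower with the HFD-microbiota by 0.28 on the log2 scale, in the direction of the first probe (two-sided exact permutation p 0.108, unadjusted limma p 0.0636), and higher by 0.21 with lean microbiota (limma p 0.142). The log2 fold change for Conv + OM(HFD) vs. Conv + LM mice was −0.49 (95% CI −0.79 to −0.18), with an unadjusted limma p of 0.00387 and an adjusted p of 0.9996 over 30671 probes. Its exact two-sided permutation p was 0.00794, the smallest that 5 mice against 5 allow. Of the 14 probes this was the only one under the unadjusted threshold in that comparison, where 839 of all probes (2.74%) were. The first Otc probe differed by −0.07 there (limma p 0.388). The second probes of the other genes correlated with the first at r = 0.13 for Asl, 0.51 for Sds, 0.71 for Gls2 and 0.77 for Hal over the same 16 mice, and no p is given for these.

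The cytosolic steps moved little at the probes that stood for them. Ass1, which joins citrulline and aspartate, averaged 8.96 ± 0.13 (SD, n = 6) in Conv + PBS, 8.96 ± 0.10 (n = 5) in Conv + LM and 8.96 ± 0.14 (n = 5) in Conv + OM(HFD) mice. The 95% interval of its log2 fold change for Conv + OM(HFD) vs. Conv + PBS, −0.18 to 0.18, was the narrowest of the set after that of Otc. Asl, which splits argininosuccinate into arginine and fumarate, averaged 6.26 ± 0.13, 6.36 ± 0.15 and 6.32 ± 0.23 in the same order, and its values overlapped in all comparisons. The second Asl probe, with a within-group SD of 0.61, was higher than in the controls by 0.36 (limma p 0.310) with the HFD-microbiota. With lean microbiota it was higher by 0.25 (limma p 0.473). The mean of both probes gave 0.21 (limma p 0.286) for Conv + OM(HFD) vs. Conv + PBS.

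Of the catabolic enzymes, Sds, serine dehydratase, which turns serine into pyruvate and ammonia, had the largest differences from the controls among the probes that stood for the 9 genes. Its level in the Conv + PBS mice ran from 4.67 to 5.22, with a median of 4.84. It stood at 4.97, 6.03, 5.11, 4.98 and 5.15 in Conv + LM mice and at 5.90, 4.86, 5.23, 4.996 and 5.61 in Conv + OM(HFD) mice. All 10 recipients of microbiota lay above the Conv + PBS median, but only 1 Conv + LM and 3 Conv + OM(HFD) mice lay above the highest Conv + PBS mouse. The log2 fold change was 0.41 (95% CI −0.04 to 0.87) for Conv + OM(HFD) and 0.34 (−0.11 to 0.80) for Conv + LM vs. Conv + PBS mice, or 1.33-fold and 1.27-fold. The unadjusted limma p was 0.0717 and 0.129, and the exact two-sided permutation p 0.0866 and 0.113.

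These Sds differences were carried by slide 1. With the HFD-microbiota the difference from the controls was 0.74 on slide 1 and −0.04 on slide 2, and with lean microbiota it was 0.66 and 0.11. Slide 1 held the 3 highest mice, Conv + LM mouse 14 and Conv + OM(HFD) mice 25 and 30. Without the mice with high neutrophil markers, the log2 fold change for Conv + OM(HFD) vs. Conv + PBS was 0.26 (95% CI −0.22 to 0.74, limma p 0.265). Without Conv + LM mouse 14, that for Conv + LM vs. Conv + PBS was 0.15.

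Hal, histidase, which removes ammonia from histidine, ran from 4.53 to 5.08 in Conv + PBS mice with a median of 4.84. It stood at 5.31, 5.30, 4.75, 4.71 and 4.82 in Conv + LM mice and at 5.49, 4.84, 4.69, 4.57 and 5.07 in Conv + OM(HFD) mice. Its mean was 0.12 (95% CI −0.25 to 0.48) higher on the log2 scale with the HFD-microbiota than in the controls, and 0.0008 higher without the mice with high neutrophil markers. Hal was the only enzyme of the 9 that differed between slides at an unadjusted p under 0.05, as 1996 of all genes did (9.78%). It was lower by 0.34 ± 0.12 (SE) on slide 2 (limma p 0.0123, adjusted p 0.472), and 1 gene (0.0049%) passed the adjusted threshold between slides. The part of the slide in these values was not tested further.

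Gls2, the liver form of glutaminase, which frees ammonia from glutamine, stood at 6.26, 6.46, 6.11, 5.91 and 6.09 in Conv + LM mice and at 6.39, 6.00, 5.88, 5.87 and 5.97 in Conv + OM(HFD) mice. It ran from 5.96 to 6.20 in Conv + PBS mice. Of the Conv + OM(HFD) mice only mouse 25 exceeded the Conv + LM median. The log2 fold change for Conv + OM(HFD) vs. Conv + LM mice was −0.14 (95% CI −0.39 to 0.10, limma p 0.228). It became −0.24 (−0.46 to −0.01, unadjusted limma p 0.0407) without the mice with high neutrophil markers, of which mouse 25 is one, and −0.07 without Conv + LM mouse 14.

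Tat, tyrosine aminotransferase, the first step of tyrosine breakdown, ran from 7.43 to 8.42 in Conv + PBS mice, from 7.52 to 8.52 with lean microbiota and from 7.91 to 8.43 with the HFD-microbiota. The groups overlapped, with an SD of 0.35, 0.42 and 0.20 in this order, so that the Conv + OM(HFD) mice covered the narrowest range. Its log2 fold change for Conv + OM(HFD) vs. Conv + PBS was 0.15 (95% CI −0.26 to 0.56), and fell to 0.03 without Conv + PBS mouse 1 and to 0.05 without both mice with high neutrophil markers. Tdo2, tryptophan dioxygenase, which opens the ring of tryptophan, stood at 6.89, 7.73, 7.67, 7.75 and 7.57 in Conv + LM mice and at 7.36, 7.44, 7.73, 7.88 and 8.03 in Conv + OM(HFD) mice, and ran from 7.20 to 7.70 in Conv + PBS mice. Conv + LM mouse 13 was the lowest of all 16 mice and Conv + OM(HFD) mouse 30 the highest. The log2 fold change of Tdo2 for Conv + OM(HFD) vs. Conv + PBS was 0.20 (95% CI −0.14 to 0.55, limma p 0.227), and 0.12 without mouse 30.

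**Figure D2:**
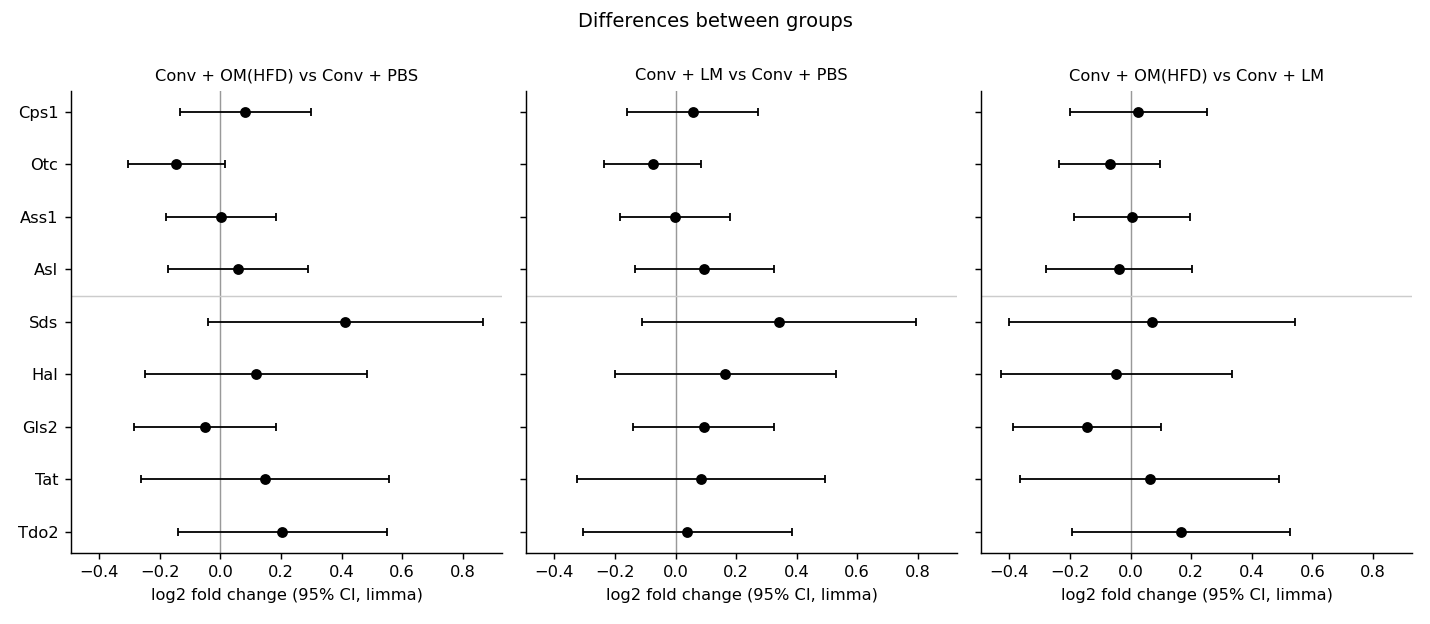
Log2 fold change of each gene (x axis, points) with its 95% confidence interval from limma (bars) in the 3 comparisons, with the urea cycle genes above the grey line. All 27 intervals include 0, and the farthest point is Sds at 0.41 in Conv + OM(HFD) vs. Conv + PBS mice.

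The enzymes differed in how far mice of the same group lay apart, and the order followed their pathway in part. The within-group SD of the log2 level, pooled over the 3 groups, was 0.10 for Otc, 0.13 for Ass1, 0.16 for Cps1 and 0.17 for Asl. All 4 urea cycle genes lay below the median of 0.24 over the 20411 genes tested, from the 3.6th percentile for Otc to the 29.3rd for Asl. Among the catabolic enzymes, Gls2 lay with the urea cycle at 0.18, and Tdo2 (0.28), Hal (0.30), Tat (0.33) and Sds (0.37) lay above the median, at percentiles 58.6 to 73.5. The median SD was 0.14 over the urea cycle genes and 0.30 over the catabolic enzymes. Each SD had an approximate SE of 0.020 (Otc) to 0.073 (Sds), so that neighbours in this order lay within their summed errors, except for the step from Gls2 to Tdo2. These are descriptions, and no test was run on the difference between the pathways.

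Brighter probes vary less between mice, and the set is bright. Among the 10205 genes with the higher mean signal, whose median SD was 0.17, Otc lay at the 6.99th percentile and Ass1 at the 20.4th, while Cps1, Asl and Gls2 lay between the 42.6th and the 52.0th. Tdo2, Hal, Tat and Sds lay at the 83.4th, 86.1st, 90.3rd and 92.7th. In this frame Otc and Ass1 stood out as steady, Cps1, Asl and Gls2 lay near the middle, and the 4 variable enzymes stood farther out than among all genes.

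From the lowest to the highest mouse, Otc differed 1.25-fold, Ass1 1.31-fold, Asl 1.48-fold, Cps1 1.498-fold and Gls2 1.51-fold. The same ratio was 1.94 for Hal, 2.12 for Tat, 2.20 for Tdo2 and 2.55 for Sds. The extremes were not all the same mice. Sds and Tat were highest in Conv + LM mouse 14, Hal in Conv + OM(HFD) mouse 25 and Tdo2 in Conv + OM(HFD) mouse 30, which was also highest for Cps1, Ass1 and Asl. The lowest Tat was that of Conv + PBS mouse 1 and the lowest Tdo2 that of Conv + LM mouse 13. Conv + LM mouse 14 and Conv + OM(HFD) mouse 25, which had the lowest markers of central vein hepatocytes, were the highest of all mice for Sds and for Gls2 and were among the 3 highest for Hal. Summed endothelial markers (4.37 and 4.19) and pancreas markers (4.12 and 3.99) were also lowest in these mice. The part of any of these cells in the levels was not tested.

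The spread did not rest on the mice with high neutrophil markers. Over the other 14 mice the SD was 0.35 for Sds, 0.30 for Tat, 0.28 for Tdo2 and 0.26 for Hal, against a median of 0.23 over all genes, and Gls2 fell to 0.14. Taken over the 8 mice of a slide without removing the group means, the SD of all 9 genes was larger on slide 1 than on slide 2. It was 0.52 against 0.15 for Sds, 0.35 against 0.16 for Tdo2 and 0.31 against 0.13 for Hal. The SD of Tat was close on both slides, at 0.34 and 0.31, as was that of Otc, at 0.13 and 0.10. On slide 2 the urea cycle genes (0.10 to 0.12) and Gls2 (0.10) lay close to Sds, Tdo2 and Hal. By this SD, and apart from Tat, the contrast between steady and variable enzymes was mainly one of slide 1. With the HFD-microbiota and lean microbiota, Sds differed from the controls by 0.74 and 0.66 on slide 1, and by −0.04 and 0.11 on slide 2. Such differences enter the SD of a slide, and an SD within groups was not taken for each slide. With the slide removed along with the group means, Hal fell to an SD of 0.239, next to the median of 0.236 over all genes treated alike, so that its place among the variable enzymes depends on the slide. Sds (0.35), Tat (0.34) and Tdo2 (0.27) stayed above that median.

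**Figure D3:**
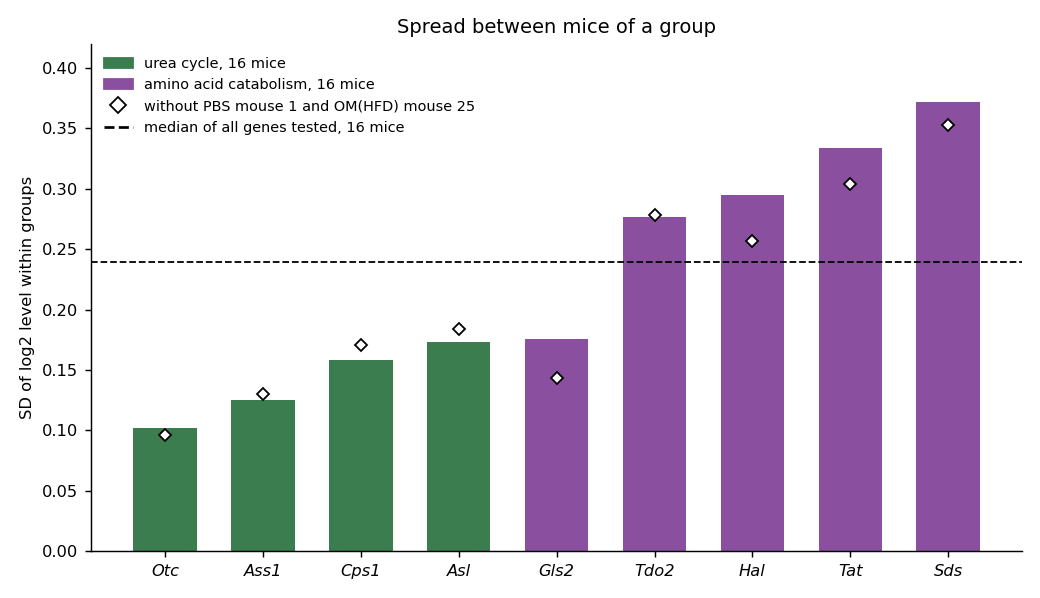
Within-group SD of the log2 level of each gene over 16 mice (bars, y axis) in rising order, coloured by pathway, with the median of all genes tested (dashed line, 0.24). Diamonds give the SD over the 14 mice left without the mice with high neutrophil markers. The 4 urea cycle genes and Gls2 lie below the line, and Tdo2, Hal, Tat and Sds above it with and without those mice.

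Whether enzymes rose and fell together from mouse to mouse was asked on deviations from the group means, so that differences between groups did not enter. Of the 36 pairs, 10 were under an unadjusted permutation p of r of 0.05, and after Benjamini-Hochberg adjustment over the 36 pairs 1 passed by r and 2 by rho. The pair that passed by both was Hal and Gls2, with r = 0.85 (permutation p 0.00077, adjusted 0.0277) and rho = 0.88 (permutation p 0.00021, adjusted 0.00756) over 16 mice. Hal and Gls2 were both highest, relative to their group, in Conv + OM(HFD) mouse 25, followed by Conv + LM mice 13 and 14 for Hal and by Conv + LM mouse 14 for Gls2. Without the mice farthest from the median of Hal, Conv + LM mouse 13 and Conv + OM(HFD) mouse 25, r was 0.76. It was 0.83 on slide 1, 0.47 on slide 2 and 0.79 with the slide removed, and 0.80 (adjusted permutation p 0.0688) without the mice with high neutrophil markers.

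The next pairs missed the adjusted threshold by r. Cps1 and Asl had r = 0.77 (rho = 0.67), Cps1 and Tdo2 r = 0.68 (rho = 0.59), Asl and Tat r = 0.62 (rho = 0.65) and Otc and Sds r = −0.57 (rho = −0.59), each with a permutation p of r of 0.0505 after adjustment. By rho only Otc and Sds, which ran in opposite directions, passed among these (adjusted permutation p 0.0495). Tat and Tdo2 had r = 0.64 (adjusted permutation p 0.0696), with 0.93 on slide 1 and 0.33 on slide 2. With the slide removed these 5 pairs all passed. The adjusted permutation p was then 0.0294 for Cps1 and Asl, 0.0416 for Cps1 and Tdo2, 0.0294 for Asl and Tat, 0.0196 for Otc and Sds (r = −0.74) and 0.0196 for Tat and Tdo2 (r = 0.72). Sds and Gls2 had r = 0.68, which fell to 0.05 without Conv + LM mouse 14 and Conv + OM(HFD) mouse 25 and rests on those mice. Hal and Tdo2 had r = −0.55, which did not pass (adjusted permutation p 0.169).

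**Figure D4:**
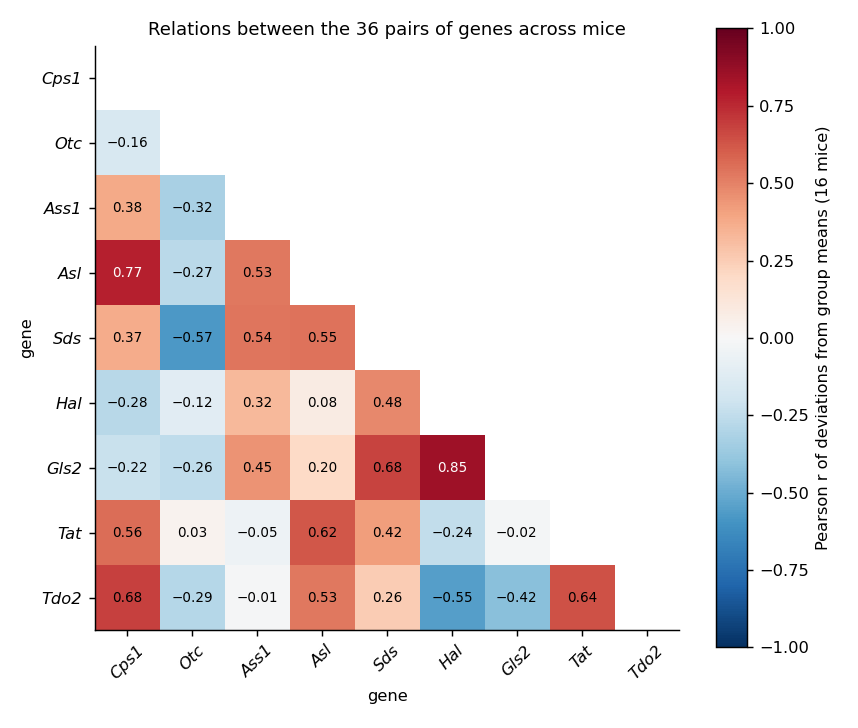
Pearson r of the deviations from the group means for each of the 36 pairs of genes over 16 mice (colour and number). The strongest is Hal with Gls2 at 0.85, Cps1, Asl, Tat and Tdo2 are positive with one another, and Hal with Tdo2 is −0.55.

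The enzymes were then set beside 14 indicator genes of glucagon and fasting, of glucocorticoid and of the clock, again as deviations from the group means. Of the 126 relations, 29 were under an unadjusted permutation p of r of 0.05, 4 kept an adjusted permutation p of r under 0.05 and 1 did so by rho. Of these 4, Tdo2 held 3 and Tat 1. The other enzymes held none. Without Conv + OM(HFD) mouse 30 the count was 8, of which Hal held 4 (with Cyp4a14, Fkbp5, Arntl and the clock gene Dbp), so that the absence of calls for Hal rests on that mouse.

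Tdo2 followed Fkbp5, a chaperone gene induced by glucocorticoids, with r = 0.84 (permutation p 3e-05, adjusted 0.00378) and rho = 0.87 (permutation p 3e-05, adjusted 0.00378) over 16 mice. Without Conv + PBS mouse 2 and Conv + LM mouse 13 it was 0.79, on slide 1 it was 0.88 and on slide 2 it was 0.64. In Conv + PBS mice 1 and 2, Conv + LM mouse 13 and Conv + OM(HFD) mouse 25, Fkbp5 lay at least 0.69 below the group mean, and Tdo2 was below it by 0.07 to 0.63. Within the other 12 mice r was 0.73 (permutation p 0.0327, not adjusted). Tdo2 also followed Arntl, a clock activator, with r = 0.82 (permutation p 0.00029, adjusted 0.0183) and rho = 0.78 (permutation p 0.00107, adjusted 0.0674). Without Conv + LM mouse 13 and Conv + OM(HFD) mouse 30 that r was 0.66, with 0.90 on slide 1 and 0.48 on slide 2.

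The third relation of Tdo2 was with Cyp4a14, a fatty acid hydroxylase induced in fasting, with r = 0.72 (permutation p 0.00119, adjusted 0.0375) but rho = 0.65 (permutation p 0.00916, adjusted 0.159). It fell to 0.54 without Conv + PBS mouse 2 and Conv + LM mouse 13, and was 0.74 on slide 1 and 0.56 on slide 2. In Conv + PBS mice 1 and 2, Conv + LM mouse 13 and Conv + OM(HFD) mouse 25, Fkbp5, Arntl and Cyp4a14 all lay below their group means. The 3 relations of Tdo2 are therefore not independent of one another. Tdo2 ran against the clock gene Dbp (r = −0.71, rho = −0.74), and this did not pass (adjusted permutation p of r 0.0875). Tat followed Igfbp1, a secreted protein raised when insulin is low, with r = 0.80 (permutation p 0.00078, adjusted 0.0328) and rho = 0.61 (permutation p 0.0191, adjusted 0.239). It fell to 0.53 without Conv + PBS mouse 1 and Conv + LM mouse 13, which were lowest for both genes relative to their groups, and was 0.86 on slide 1 and 0.77 on slide 2. With the slide removed it lost its call (r = 0.80, adjusted permutation p 0.0527), while the 3 relations of Tdo2 kept theirs and Tat with Fkbp5 (r = 0.81, adjusted permutation p 0.00819) and Sds with Mt2 (r = 0.75, adjusted permutation p 0.0244) passed. The relation of Tat with Fkbp5 was 0.80 on slide 1 and 0.82 on slide 2, while that of Sds with Mt2 was 0.76 on slide 1 and 0.0013 on slide 2.

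Over the 14 mice left without those with high neutrophil markers, Tdo2 with Fkbp5 (r = 0.85, adjusted permutation p 0.00693) was the only one of the 4 to keep its call, and Tdo2 with Arntl had r = 0.81 (adjusted permutation p 0.0671). In those 14 mice the metallothionein gene Mt2, which glucocorticoids also raise, passed with Tdo2 (r = 0.76, adjusted permutation p 0.00126) and with Tat (r = 0.72, adjusted permutation p 0.0449). Over all 16 mice these relations of Mt2 had r = 0.44 and 0.41 and did not pass (adjusted permutation p 0.246 and 0.286). The other glucocorticoid indicator genes, Tsc22d3 and Per1, did not follow Tdo2. Their r with it was −0.06 and −0.36 over 16 mice, and −0.14 and −0.30 over those 14 mice. Of the 14 indicator genes only Per2, a clock repressor, was under an unadjusted limma p of 0.05 in any comparison between groups, lower by 0.35 on the log2 scale with the HFD-microbiota than with lean microbiota (limma p 0.0232, exact two-sided permutation p 0.0635). In that comparison 2.71% of all genes were under the threshold, and 0 genes passed the adjustment.

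**Figure D5:**
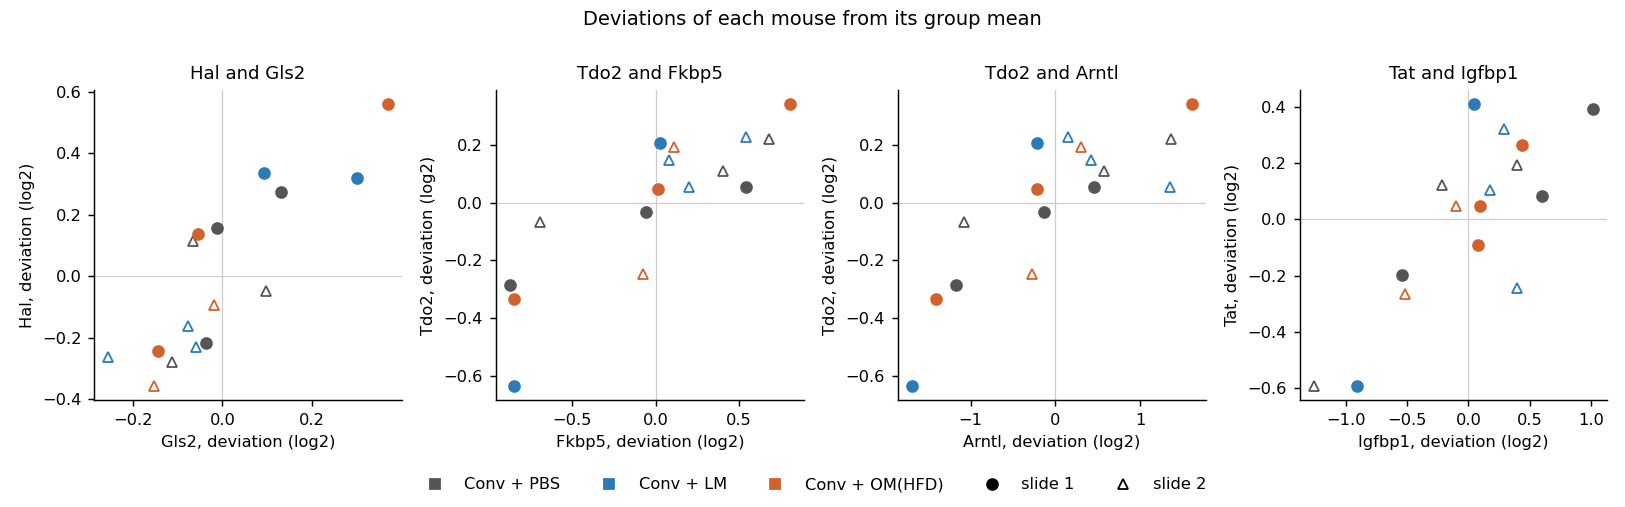
Deviations from the group mean (log2) of 4 gene pairs in 16 mice, coloured by group, with filled circles for slide 1 and open triangles for slide 2. Points rise from lower left to upper right in each panel, with r of 0.85 for Hal and Gls2, 0.84 for Tdo2 and Fkbp5, 0.82 for Tdo2 and Arntl and 0.80 for Tat and Igfbp1.

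Promoters were read for Hal, Tat and Tdo2, the variable enzymes for which RefSeq promoter sequences were at hand, and motifs were also searched in those of Ass1 and Otc. The 250 bases before the annotated start on GRCm38.p6 are chr10:93488518-93488767 (plus strand) for Hal, chr8:109990186-109990435 (plus strand) for Tat and chr3:81975729-81975978 (minus strand) for Tdo2. Capitals mark matches to the motifs searched on both strands.
Hal: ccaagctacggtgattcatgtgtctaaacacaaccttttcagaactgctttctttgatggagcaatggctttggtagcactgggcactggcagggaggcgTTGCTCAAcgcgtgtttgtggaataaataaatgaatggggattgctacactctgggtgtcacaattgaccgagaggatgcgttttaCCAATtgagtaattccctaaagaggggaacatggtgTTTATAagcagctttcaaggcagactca
Tat: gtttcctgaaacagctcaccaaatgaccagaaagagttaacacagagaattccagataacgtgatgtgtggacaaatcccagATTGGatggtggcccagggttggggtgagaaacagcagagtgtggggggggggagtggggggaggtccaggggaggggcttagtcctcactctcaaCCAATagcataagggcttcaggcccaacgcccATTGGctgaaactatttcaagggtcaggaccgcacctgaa
Tdo2: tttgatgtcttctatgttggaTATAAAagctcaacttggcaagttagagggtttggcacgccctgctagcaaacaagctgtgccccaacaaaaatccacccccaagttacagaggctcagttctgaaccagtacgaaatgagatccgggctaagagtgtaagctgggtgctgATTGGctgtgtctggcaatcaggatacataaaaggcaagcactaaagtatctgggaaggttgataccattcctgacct

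A CCAAT box (CCAAT) was found in Hal, Tat (3 copies) and Tdo2, and in 33.8% of 32851 promoters of the same length. TATAAA was found in Hal, on the opposite strand 28 bases before the start, and in Tdo2, 229 bases before it, and in 12.4% of promoters. The C/EBP motif TTGCNNAA was found in Hal, 150 bases before the start, and in 9.56% of promoters. None of the 5 promoters held TGTTCT, a glucocorticoid receptor half-site (16.1% of promoters), or the cyclic AMP element TGACGTCA (1.55%), its half-site TGACG (17.8%), GTTAAT for HNF1 (6.43%) or CAAAGTCCA for HNF4 (0.384%). No match says only that these letters were not in this window, and no matches overlapped.

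Around the 9 enzymes, few of the other genes of the same pathways passed the test between groups. Of 83 listed genes, which cover urea cycle partners, the breakdown of single amino acids, transaminases and transporters, 82 were tested. An unadjusted limma p under 0.05 was reached by 1 in Conv + OM(HFD) vs. Conv + PBS mice, 2 in Conv + LM vs. Conv + PBS mice and 0 in Conv + OM(HFD) vs. Conv + LM mice, or 1.22%, 2.44% and 0%, each below the share of all genes. Gcat, which cleaves a product of threonine into glycine, was lower by 0.17 (limma p 0.0352, exact two-sided permutation p 0.0303) with the HFD-microbiota and by 0.21 (limma p 0.0127, exact p 0.00866) with lean microbiota than in the controls on the log2 scale. Ccbl2, a transaminase of the kynurenine pathway downstream of Tdo2, was lower by 0.37 in Conv + LM than in the controls (limma p 0.0374, exact two-sided permutation p 0.026). Over 25 other settings, the call of Gcat with lean microbiota was kept in 25, that with the HFD-microbiota in 18 and that of Ccbl2 in 19. The call of Gcat with the HFD-microbiota was lost without the mice with high neutrophil markers (−0.16, limma p 0.0871), without Conv + PBS mouse 4 or 6 or Conv + OM(HFD) mouse 25, 28 or 30, and with no filter on dim probes, and that of Ccbl2 without Conv + PBS mouse 3, 4 or 5 or Conv + LM mouse 13, 15 or 16 (−0.30 to −0.36, limma p up to 0.0906). Neither passed the adjustment over all genes, with an adjusted limma p of 0.999938 and 0.99693 for Gcat and 0.99693 for Ccbl2.

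Of the 82 genes, 61 were higher on average with lean microbiota than in the controls (median log2 fold change 0.04 against −0.01 over all genes), and 49 were lower with the HFD-microbiota than in the controls (median −0.03 against −0.00041). Between both microbiota groups 61 of 82 were lower with the HFD-microbiota (median −0.06 against 0.01), where 10742 of all 20411 genes were higher. These comparisons share their mice, so their counts are not independent. The genes of a list were also measured in the same mice, so that they are not independent of one another. Of 13 genes of aromatic amino acid breakdown, the list of Tat and Tdo2, 13 had a lower mean, with a median of −0.12, and 0 had an unadjusted limma p under 0.05. Of 17 genes of branched-chain amino acid breakdown 14 had a lower mean (median −0.10, with 0 under the threshold), and of 8 genes of transaminases and glutamine handling 4 had a lower and 4 a higher mean (median 0.08, with 0 under the threshold). The 20 genes of histidine, proline, lysine and glycine breakdown had 16 lower means (median −0.09), the 14 urea cycle partners tested 8 (median −0.0082) and the 10 transporters 6 (median −0.02), with 0 under the threshold in each. Tat and Tdo2 themselves had a higher mean in that comparison, by 0.06 and 0.17, of which the Tdo2 value was 0.0067 without Conv + LM mouse 13. Without the mice with high neutrophil markers, 6 of the 82 were under the threshold in Conv + OM(HFD) vs. Conv + LM mice (Agxt2, Amt, Ccbl2, Mccc1, Slc7a1 and Tha1), or 7.32%, 5 of them lower and Ccbl2 higher, where 3.75% of all genes were and 0 genes passed the adjustment.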

How the data were processed

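Liver RNA of 16 mice was measured on 1-colour Agilent arrays of 62976 spots. The authors scanned the slides and extracted each spot with Agilent Feature Extraction 10.10.1.1 (per the labels), and the intensity values they deposited, on a linear scale, were already corrected for background within an array but not normalized between arrays. A table of log2 values, also deposited by the authors, served as an alternative only. It was not used for the main values because its normalization step is not given in the sources used here.

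Control spots and flagged spots were left out, and every log2 value was set relative to the 75th percentile of its own array. No spot was saturated. A probe was kept if 5 or more of the 16 arrays showed it well above background (30671 probes, 20411 gene names), and the brightest probe stood for a gene. Groups came from the labels. A common fit of all 3 groups was made in limma 3.58.1 (lmFit, then eBayes; R 4.3.3), and p-values were adjusted by Benjamini-Hochberg over all genes. Single genes were also tested by exact two-sided permutation over mice (scipy 1.17.1 in Python 3.11.15), with plots in matplotlib 3.10.9. For relations across mice, each value was taken relative to its group mean and 100000 permutations were drawn inside the groups. The methods give 5 or 6 mice per cage, so mice of a group may have shared one, and p-values measure the spread between these samples only, and their number limits the precision. The fit was tested on simulated data.

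The genes and lists were chosen with earlier results of these data known. Named were the 9 genes, pathway genes at an unadjusted limma p under 0.05 (at most 5 per comparison), the indicator genes, and the 3 genes nearest to Sds, Tat and Cps1. The 6 pathway genes named without the mice with high neutrophil markers fall outside this rule and were chosen after their values were seen. The alternatives were normexp, quantile normalization, the authors' log2 values, other filters, the slide as a block, the mean of a gene's probes, the methods' t-test and leaving out each mouse. The test between slides, the fits without 2 mice and the alternatives for relations and pathway genes were chosen after seeing the data. A further gene of the set and a further pathway gene are not reported here.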

Additional observations from a re-analysis of the deposited data

Results flagged for a closer look

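Single mice stood apart from their group in 5 of the 27 sets of values tested (9 genes in 3 groups), where chance flags about 1 in 20 groups. In each of these the gap from the highest or lowest mouse to the nearest other mouse took up most of the range of the group. Cps1 was low in Conv + LM mouse 13 (5.9281, nearest mouse 6.18) and high in Conv + OM(HFD) mouse 30 (6.5083, nearest 6.14). Sds was high in Conv + LM mouse 14 (6.0266, nearest 5.15). Gls2 was high in Conv + OM(HFD) mouse 25 (6.3900, nearest 6.00), which is 1 of the mice with high neutrophil markers. Tdo2 was low in Conv + LM mouse 13 (6.8873, nearest 7.57). The 27 sets were measured in the same mice and are not independent, so that their count is a description. The part of any single cause in the flagged values was not tested.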

How the results depend on the processing

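The counts of enzymes under an unadjusted p of 0.05 moved by 1 gene at most. With the mean of all probes, Otc made it 1 in Conv + OM(HFD) vs. Conv + PBS and 1 in Conv + OM(HFD) vs. Conv + LM mice, where 3.26% and 2.74% of all genes were under it. The methods' t-test gave 1 (Otc) in Conv + OM(HFD) vs. Conv + PBS mice, against 3.11% of all genes. Leaving out each mouse gave 0 to 1, 0 to 0 and 0 to 1 in Conv + OM(HFD) vs. Conv + PBS, Conv + LM vs. Conv + PBS and Conv + OM(HFD) vs. Conv + LM mice. The calls were Otc without Conv + PBS mouse 1 or 6 (log2 fold change down to −0.1767), Sds without Conv + LM mouse 14 or Conv + OM(HFD) mouse 26 or 29 (up to 0.5273), against 3.14% to 4.23% of all genes, and Gls2 in the last comparison without Conv + OM(HFD) mouse 25 (−0.2359, against 3.48%). Without the mice with high neutrophil markers Gls2 again made that count 1, against 3.75%.

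Signs turned for small values. Ass1 was −0.0272, −0.0308, −0.0487 and −0.0212 in Conv + OM(HFD) vs. Conv + PBS with normexp, quantile normalization, the authors' values and without the mice with high neutrophil markers. In the same order it was 0.0135, 0.0154, 0.0355 and 0.0046 in Conv + LM vs. Conv + PBS mice and −0.0407, −0.0462, −0.0842 and −0.0258 in Conv + OM(HFD) vs. Conv + LM mice. The mean of probes turned Otc to 0.0686 in Conv + LM vs. Conv + PBS mice, and Asl to 0.0356 and Sds to −0.1229 in Conv + OM(HFD) vs. Conv + LM mice. In Conv + LM vs. Conv + PBS mice the authors' values turned Tdo2 to −0.0045, and leaving out the mice with high neutrophil markers turned Tat to −0.0353. Sds became −0.0756 without those mice and Hal 0.0077 with normexp when both microbiota groups were compared.

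Leaving out each mouse turned the sign of 33 of 432 values. In Conv + OM(HFD) vs. Conv + PBS mice Ass1 ran from −0.0449 to 0.0478, Asl from −0.0333 to 0.1086 and Hal from −0.0220 to 0.2074. In Conv + LM vs. Conv + PBS mice Ass1 ran from −0.0490 to 0.0355, Tat from −0.0353 to 0.2311 and Tdo2 from −0.0179 to 0.1973. Between both microbiota groups Cps1 ran from −0.0541 to 0.0487, Ass1 from −0.0342 to 0.0506, Asl from −0.1288 to 0.0135, Sds from −0.0756 to 0.2650, Hal from −0.1869 to 0.0425 and Tat from −0.0845 to 0.1659. The median SDs stayed within their errors, at 0.1248 to 0.1470 for the urea cycle and 0.2676 to 0.3067 for the catabolic enzymes when each mouse was left out.

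The relations depended more on the processing. The count of pairs after adjustment, 1, became 0 with normexp, 0 with the authors' values, 4 with the mean of probes (Hal with Gls2 not among them), 6 with the slide as a block and 0 without the mice with high neutrophil markers, and 0 to 4 when each mouse was left out. It was 0 without Conv + PBS mouse 2 or 4 or Conv + OM(HFD) mouse 25, and above 1 without Conv + PBS mouse 1, 5 or 6, Conv + LM mouse 16 or 17 or Conv + OM(HFD) mouse 28 or 29. The count of relations with indicators, 4, became 2 with quantile normalization and 0 with the authors' values. It ran from 1 (without Conv + PBS mouse 2 or Conv + LM mouse 13) to 8 (without Conv + OM(HFD) mouse 30, 4 of them relations of Hal), with 2 without Conv + PBS mouse 1 or 5 or Conv + LM mouse 15. Of 22 settings, Tdo2 with Fkbp5 kept its call in 21 (r from 0.7153 to 0.8737), Tdo2 with Arntl in 17, Hal with Gls2 in 15 (r from 0.5837 to 0.8751), Tat with Igfbp1 in 13 and Tdo2 with Cyp4a14 in 9 (r from 0.5474 to 0.7804).

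Of the 82 pathway genes, 1 in Conv + OM(HFD) vs. Conv + PBS mice became 2 with normexp, 2 with the authors' values, 0 with no filter on dim probes and 2 without the mice with high neutrophil markers (against 3.15%, 3.23%, 2.43% and 3.18% of all genes), with 0 to 4 when each mouse was left out (4 without Conv + OM(HFD) mouse 26, against 3.93%). In Conv + LM vs. Conv + PBS mice 2 became 4 with normexp, 4 with the mean of probes and 5 without the mice with high neutrophil markers (against 2.73%, 3.95% and 4.87%), with 1 to 5 when each mouse was left out (5 without Conv + PBS mouse 1 or Conv + LM mouse 16, against 4.38% and 4.76%). Between both microbiota groups 0 became 2 with normexp, 1 with quantile normalization, 1 with the authors' values, 1 with probes well above background on all arrays, 1 with the slide as a block and 6 without the mice with high neutrophil markers (against 2.68%, 2.51%, 2.74%, 2.56%, 4.30% and 3.75%), with 0 to 5 when each mouse was left out (5 without Conv + LM mouse 16, against 3.92%). The cause of these shifts was not tested. No paired analysis was possible because no mouse number occurs in more than 1 group.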

Other observations

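Over the 16 mice, and as deviations from the group means, the genes outside the set most like Sds among 20326 compared were BC055308 (r = 0.90), Slc41a3 (0.88) and Arhgap17 (0.88). Those most like Tat were Ppp1r3b (r = 0.90), a regulator of glycogen synthesis, Ppp3r1 (0.90), a subunit of calcineurin, and Yod1 (0.89), a deubiquitinase. Those most like Cps1 were the array feature NAP059783-1 (r = 0.89), Zzef1 (0.88) and the kinase gene Wnk1 (0.88). They are the highest of many correlations, so their size is a description and carries no test. Sds varied by 0.37 (within-group SD, log2), while BC055308 varied by 0.19 and Slc41a3 by 0.40.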
